A study of Rattus norvegicus with 13 samples.

Results

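The natriuretic peptide system of the rat left ventricle was taken as 5 genes, chosen by symbol as carriers of wall stress signals in the heart: the peptides Nppa (atrial natriuretic peptide) and Nppb (brain natriuretic peptide), and the receptors Npr1, Npr2 and Npr3. Each of the 5 was read by 1 probe set, the array's unit of several probes to the same transcript, out of 31042 probe sets and 14217 named genes on the array. Hearts came from pregnant Sprague Dawley rats in 3 groups of arrays. The L-NAME-fed group (n = 4) drank water with 1 g/L of L-NAME, an inhibitor of nitric oxide synthesis. The methionine-fed group (n = 4) drank water with 9 g/L of methionine, the amino acid from which homocysteine is made. The control group (n = 5) received neither agent. By the labels, treatment ran over days 1 to 20 of pregnancy and hearts were taken on day 20 or 21. The labels do not mention parity, while the methods describe methionine or plain water from the first pregnancy on and hearts taken in the 3rd or 4th, a longer exposure than the labels give. The paper describes arrays of 4 control and 4 methionine-fed hearts and no L-NAME-fed group. It does not say which control arrays it used, and all 5 were used here.

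Cardiac muscle cells make and release the natriuretic peptides when the chamber wall is stretched, and the peptides lower blood pressure and promote loss of salt and water. Both bind Npr1, a receptor that makes cyclic GMP inside the cell. Npr2 also makes cyclic GMP and answers mainly to Nppc, the C-type peptide, and Npr3 has no cyclase and removes peptide from the circulation. In the adult heart Nppa belongs mainly to the atria, and its return in the ventricle is a common sign of load.

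In L-NAME-fed hearts Npr3 was 3.38-fold higher and Npr2 was 0.739-fold the control level, while neither peptide nor Npr1 passed the test. In methionine-fed hearts none of the 5 genes passed. The peptides were the most variable of the 5 between hearts of the same group, and a low control replicate 2 widened the spread of Nppb. Nppa was highest on the array with the highest atrial marker level. The signals of each gene on each array are plotted by group.

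**Figure D1:**
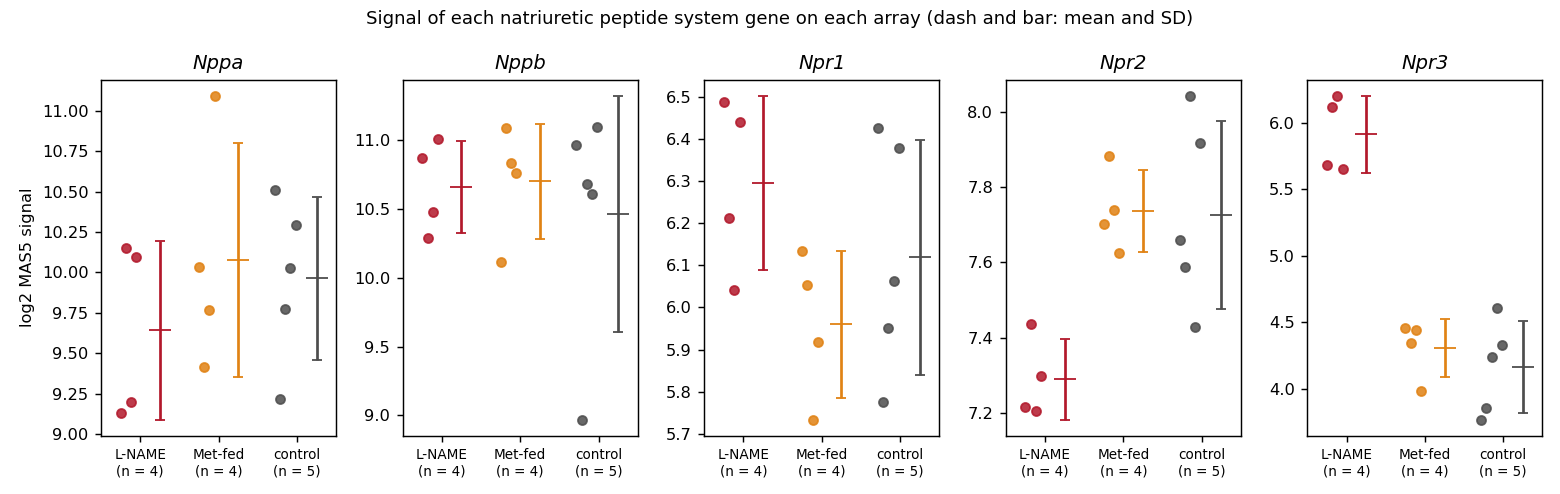
Log2 MAS5 signal (y axis, a separate range for each gene) of the 5 genes on the 13 arrays by group. Points are arrays, and the dash and bar beside them are the group mean and SD. All 4 L-NAME-fed arrays lie above the other 9 for Npr3, and control replicate 2 lies far below the other arrays for Nppb.

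The values were MAS5 signals, the array maker's summary of a probe set, scaled so that each array had a trimmed mean of 150. They were compared on the log2 scale with limma over all 13 arrays, and p-values over all probe sets received the Benjamini-Hochberg adjustment, with calls made under 0.05. The L-NAME-fed arrays stood apart from the other 9. Their median signal was 34.2 to 36.9, against 25.8 to 29.2 on methionine-fed and 25.7 to 27.2 on control arrays. Their log2 ratio of 3′ to 5′ beta-actin signal was 2.32 to 2.70, against 3.32 to 3.71 on methionine-fed and 3.31 to 3.67 on control arrays. Between L-NAME-fed and control hearts 45.7% of all probe sets passed, 28.7% higher and 17% lower, and the groups did not overlap for 40.3%. The median change of all probe sets was 0.22 on the log2 scale. Of the probe sets called, 62.8% were higher. That share was 34.9% after centring each array on its median, 50.1% after quantile normalization and 85.8% after centring on the spike-in controls, with median changes of -0.21, -0.01 and 0.62. The part of these array differences in the results on L-NAME-fed hearts was not tested. On every array the 5 genes exceeded the brightest of the bacterial control probe sets.

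Nppa and Nppb did not differ between L-NAME-fed and control hearts beyond the spread between arrays. Nppa had log2 signals of 9.13, 10.15, 9.20 and 10.09 on the L-NAME-fed arrays, 10.04, 9.42, 9.77 and 11.09 on the methionine-fed arrays and 10.51, 9.22, 9.77, 10.03 and 10.29 on the control arrays, each in order of replicate number. The L-NAME-fed arrays formed a low and a high pair, methionine-fed replicate 4 was the highest of all, and the 3 groups overlapped. The change was -0.32 ± 0.32 (log2, SE, n = 4 and 5) in L-NAME-fed against control hearts, with a 95% interval of -0.996 to 0.354 (adjusted p = 0.447, limma). In a bulk sample, fewer cells of a type and less RNA per cell cannot be told apart.

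Nppb had log2 signals of 10.87, 10.29, 10.48 and 11.01 on the L-NAME-fed arrays, 10.11, 11.09, 10.83 and 10.76 on the methionine-fed arrays and 10.96, 8.97, 10.68, 10.61 and 11.10 on the control arrays. A single control array, replicate 2, was low, and the other 12 lay within a common range of 10.11 to 11.10. The change in L-NAME-fed hearts was 0.20 ± 0.33, with a 95% interval of -0.50 to 0.90 (adjusted p = 0.667, limma). Without control replicate 2 it was -0.18, and after array median centring it was -0.23, so that no direction can be given for Nppb. Nppa likewise changed sign, to 0.08, after spike-in centring.

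The peptides varied between arrays of the same group more than nearly all probe sets of high signal. The SD within groups was 0.59 for Nppa and 0.62 for Nppb on the log2 scale, against a median of 0.13 over the 3105 probe sets of highest mean signal. Among these, 13 probe sets varied at least as much as Nppa and 12 at least as much as Nppb. The corresponding SDs of the receptors were 0.23 for Npr1, 0.18 for Npr2 and 0.30 for Npr3. The SD of Nppb includes control replicate 2, at 8.97 against 10.61 to 11.10 on the other control arrays. By group the SD of Nppb was 0.34 in L-NAME-fed, 0.42 in methionine-fed and 0.86 in control hearts. Within the control group the highest array over the lowest was 4.36-fold for Nppb and 2.46-fold for Nppa, against 1.57-fold for Npr1, 1.53-fold for Npr2 and 1.79-fold for Npr3. The 4.36-fold of Nppb rested on control replicate 2, and the fold was not computed without that array.

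Npr1, the cyclase receptor that binds both peptides, did not pass the test in any group. Its log2 signals were 6.49, 6.21, 6.04 and 6.44 on the L-NAME-fed arrays, 6.13, 6.05, 5.73 and 5.92 on the methionine-fed arrays and 6.43, 5.78, 5.95, 6.06 and 6.38 on the control arrays. The groups overlapped, with 2 L-NAME-fed arrays above every control array. The change in L-NAME-fed against control hearts was 0.18 ± 0.16, with a 95% interval of -0.17 to 0.52 (adjusted p = 0.410, limma). It was -0.12 after quantile normalization, -0.25 after array median centring and 0.58 after spike-in centring, where it passed (adjusted p = 0.0176, limma).

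Npr2, the receptor for the C-type peptide, fell in L-NAME-fed hearts. Its log2 signals were 7.22, 7.44, 7.21 and 7.30 on the L-NAME-fed arrays, 7.70, 7.88, 7.74 and 7.62 on the methionine-fed arrays and 7.66, 7.59, 8.04, 7.43 and 7.92 on the control arrays. Of the 4 L-NAME-fed arrays, 3 lay below every control array, and replicate 2 lay just above control replicate 4. The change was -0.44 ± 0.12, a fold of 0.739 with a 95% interval of 0.617 to 0.884 (adjusted p = 0.00754, limma, and p = 0.0238 by the exact permutation test, 2-sided). Leaving out each array in turn gave changes between -0.51 and -0.36, and all of them passed. After spike-in centring the change was -0.03 (adjusted p = 0.867, limma). Among the 2944 probe sets within 0.5 log2 of Npr2 in mean control signal, 29.6% were called lower and 35.1% higher, and 25.5% had a lower change.

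Npr3, the clearance receptor, rose in L-NAME-fed hearts. Its log2 signals were 5.68, 6.12, 6.20 and 5.66 on the L-NAME-fed arrays, 4.45, 4.34, 4.44 and 3.98 on the methionine-fed arrays and 3.77, 3.86, 4.24, 4.61 and 4.33 on the control arrays. Every L-NAME-fed array lay more than 1 log2 unit above the highest array of the other groups. The change was 1.76 ± 0.22, a fold of 3.38 with a 95% interval of 2.44 to 4.67 (adjusted p = 7.45e-06, limma). By exact permutation of the arrays (2-sided) p was 0.00794, the lowest possible with 4 arrays against 5.

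Npr3 kept its direction and its call under the 11 alternatives in which it was tested, with changes between 0.70 and 2.16. The lowest came from adding 50 to every signal before taking logarithms, and under the filter at the median signal Npr3 was not tested, since its mean lay below that filter. Many probe sets of like signal also moved. Of the 2657 probe sets within 0.5 log2 of Npr3 in mean control signal, 41.9% were called higher, their median change was 0.50, and 91.1% had a smaller change than Npr3. The changes of Npr3 and Npr2 are drawn against those of probe sets of like signal.

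**Figure D2:**
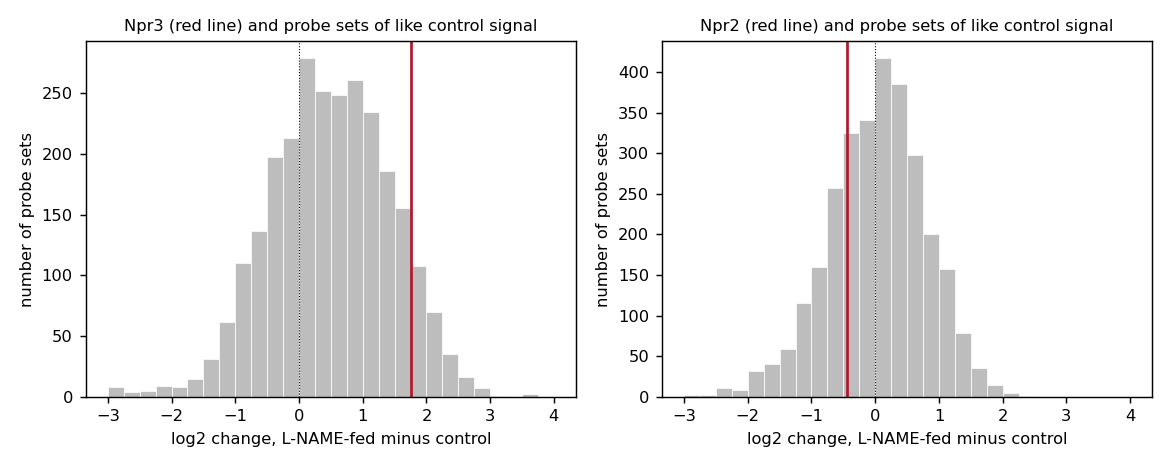
Number of probe sets (y axis) by log2 change in L-NAME-fed minus control hearts (x axis, bins of 0.25) among probe sets within 0.5 log2 of the mean control signal of Npr3 (left, 2657 probe sets) and Npr2 (right, 2944 probe sets). The outermost bins also hold the changes beyond them, the red line is the gene itself, and Npr3 at 1.76 lies in the upper tail while Npr2 at -0.44 lies within the bulk.

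Of the 5 genes, 2 passed in L-NAME-fed against control hearts, beside 45.7% of all probe sets, and the groups did not overlap for 1, beside 40.3%. The median change of the 5 was 0.18, and that of all probe sets was 0.22. A count of this size among so many changed probe sets is no finding about the 5 genes as a group.

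Between methionine-fed and control hearts no gene of the 5 passed, and none had an unadjusted p under 0.05 in limma. No probe set of the array passed either, a share of 0%, with 3319 at an unadjusted p under 0.05 in limma. A plain test with equal variances in place of limma gave 2478 at an unadjusted p under 0.05 and none after adjustment. The paper's own test, with variance stabilization and a threshold of P under 0.05, was not repeated here. The groups did not overlap for 2.89% of all probe sets and for 0 of the 5. The change of Nppa was 0.11, with a 95% interval of -0.56 to 0.79, and it was -0.22 without methionine-fed replicate 4 and -0.07 without control replicate 2. Nppb changed by 0.24, with an interval of -0.47 to 0.94, and by -0.14 without control replicate 2. As folds these intervals ran from 0.678 to 1.73 for Nppa and from 0.724 to 1.92 for Nppb. Peptide changes within these ranges are not excluded by these arrays.

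The receptors were measured more closely in the methionine-fed hearts. Npr1 changed by -0.16, with an interval of -0.50 to 0.19, and Npr3 by 0.15, with an interval of -0.32 to 0.61. Npr2 changed by 0.01, with an interval of -0.25 to 0.27, which corresponds to a fold between 0.841 and 1.20. The order of the group means put methionine-fed hearts next to control hearts for Npr2 and Npr3, and in neither did these groups differ beyond their spread.

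Between L-NAME-fed and methionine-fed hearts the same receptors passed as against control. Npr3 was higher by 1.61 ± 0.23, a fold of 3.06 with a 95% interval of 2.17 to 4.30 (adjusted p = 4.59e-05, limma, n = 4 each). Npr2 was lower, with a change of -0.45 ± 0.13 (adjusted p = 0.0110, limma), or -0.22 after spike-in centring (adjusted p = 0.267, limma). Neither receptor overlapped between these groups, for which the exact permutation test (2-sided) gave p = 0.0286, the smallest that 4 arrays against 4 allow. The 2 called genes of 5 stood beside 40.3% of all probe sets, 25.4% higher and 14.9% lower, and the 2 without overlap beside 39.6%. The L-NAME-fed arrays are common to this comparison and the one with control.

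The remaining members did not pass between these groups. Nppa changed by -0.43 ± 0.34 (adjusted p = 0.331, limma), Nppb by -0.04 ± 0.35 (adjusted p = 0.943, limma) and Npr1 by 0.34 ± 0.17 (adjusted p = 0.134, limma). Npr1 passed after spike-in centring, with a change of 0.56 (adjusted p = 0.0328, limma), and was -0.03 after array median centring. The plot of changes sets the 3 comparisons side by side.

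**Figure D3:**
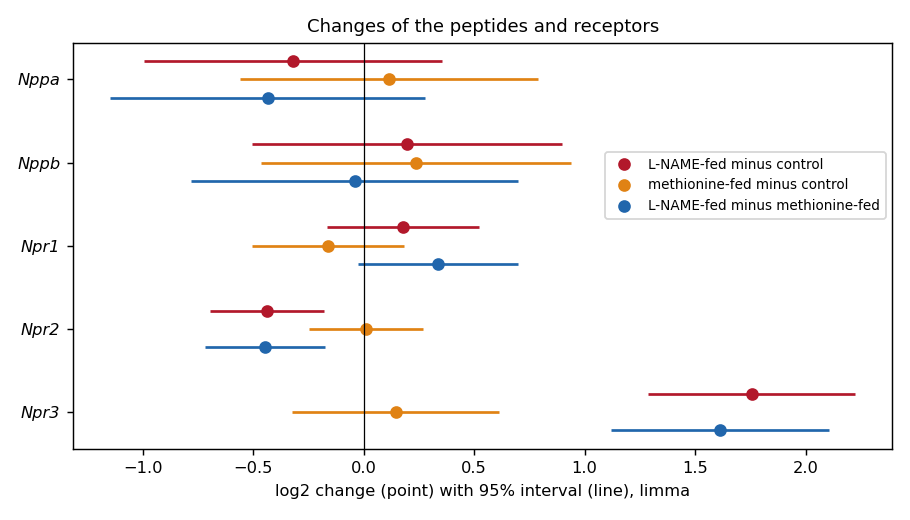
Log2 change (x axis) of the 5 genes (y axis) in the 3 comparisons, as limma gave it (points) with 95% intervals (lines). Those of Npr3 and Npr2 exclude 0 in both comparisons with L-NAME-fed hearts, and every interval of the peptides and Npr1 spans 0.

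Atrial muscle markers differed widely between arrays of each group. The markers Myl7 and Myl4, the atrial myosin light chains, and Sln, sarcolipin, had a mean log2 signal of 6.57 to 9.63 on L-NAME-fed arrays, 6.69 to 10.47 on methionine-fed arrays and 6.41 to 8.46 on control arrays. Sln alone was 4.42, 8.91, 4.26 and 8.19 on the L-NAME-fed arrays, 6.50, 5.69, 5.18 and 10.71 on the methionine-fed arrays and 5.75, 4.98, 7.68, 7.39 and 8.34 on the control arrays. Of 12 atrial markers listed, 11 were measured, with a summed level of 12.06 to 12.69, 12.03 to 13.09 and 12.07 to 12.28 on the log2 scale in L-NAME-fed, methionine-fed and control hearts. The 3 were taken after their values were seen and had the largest spread within groups of the 11. They did not always go together. On methionine-fed replicate 3 Myl7 was 10.71 and Sln 5.18. The group means of the 3 did not differ beyond the spread (exact permutation test, 2-sided, p = 0.611 for L-NAME-fed and p = 0.889 for methionine-fed against control). Others of the 11 passed in L-NAME-fed hearts. Kcna5, an atrial potassium channel, changed by -1.10, Nr2f1 by -0.83, Pam by -0.27 and Dkk3 by 0.52. Of these, Nr2f1 lost its call after spike-in centring (adjusted p = 0.298, limma) and without either of control replicates 3 and 5 (adjusted p = 0.0910 and 0.0897, limma) or any of L-NAME-fed replicates 2, 3 and 4 (adjusted p = 0.0523, 0.113 and 0.0665, limma). Pam was 0.02 after quantile normalization and 0.14 after spike-in centring, and Dkk3 was 0.09 after array median centring (adjusted p = 0.515, limma). Pam has 3 probe sets and Dkk3 has 4, and only the brightest of each is described. In methionine-fed hearts Kcna5 changed by -1.06 with no overlap with control hearts, and did not pass (adjusted p = 0.152, limma).

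The arrays with more atrial marker signal also had more Nppa in L-NAME-fed hearts. Replicates 2 and 4 of that group, at 9.63 and 9.07 for the marker mean, had Nppa at 10.15 and 10.09. Replicates 1 and 3, at 6.59 and 6.57, had Nppa at 9.13 and 9.20. The low and the high pair of Nppa were thus those of the markers. Methionine-fed replicate 4 had the highest marker mean, 10.47, and the highest Nppa, 11.09.

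Over the 9 methionine-fed and control arrays Nppa and the marker mean had a Pearson r of 0.77 (exact permutation p = 0.0149, and 0.0747 adjusted over 5 relations) and a Spearman rho of 0.68 (exact permutation p = 0.0503, and 0.252 adjusted). Without control replicate 5 and methionine-fed replicate 4, the 2 arrays farthest from the median marker level, r was 0.30, so the relation rested on them. For Nppb r was 0.38 (exact permutation p = 0.247, and 0.617 adjusted) and rho 0.43 (exact permutation p = 0.250, and 0.625 adjusted). With the marker mean as a covariate Nppa changed by -0.51 in L-NAME-fed against methionine-fed hearts and passed (adjusted p = 0.0488, limma), while this term changed no other call among the 5 genes in the 3 comparisons.

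**Figure D4:**
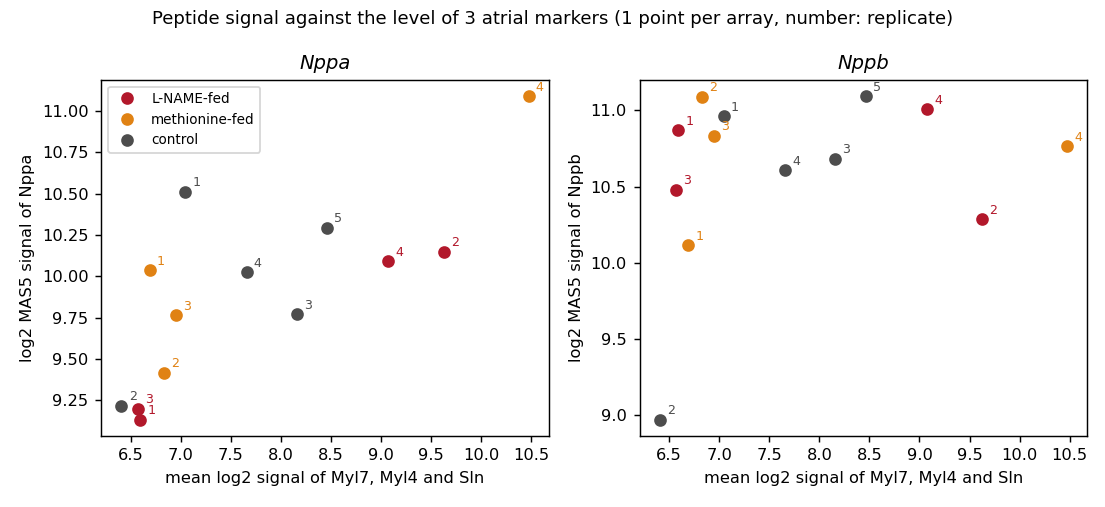
Log2 signal of Nppa (left) and Nppb (right) on the y axes against the mean log2 signal of Myl7, Myl4 and Sln on the x axis, with 1 point per array, colours for groups and numbers for replicates. Nppa is highest, at 11.09, on methionine-fed replicate 4 where the marker mean is 10.47, and Nppb is lowest, at 8.97, on control replicate 2 where the marker mean is 6.41.

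Nppa and Nppb did not rise and fall together across hearts to a degree these arrays could show. Over the 9 methionine-fed and control arrays r was 0.46 (exact permutation p = 0.219, and 0.742 adjusted over 10 pairs of the 5 genes) and rho was 0.28 (exact permutation p = 0.463, and 1 adjusted). Without control replicate 2 and methionine-fed replicate 4 r was -0.02. None of the 10 pairs passed after adjustment.

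The genes most like each member were sought among 11932 probe sets of single genes with at least the median signal, by the Pearson r over the 13 arrays after group means were removed. These arrays share a group structure and common scaling, and the values are given as a description. Each r was picked as the highest of a long search over few arrays, and none was tested. Nppa went most closely with Ahnak2 (r = 0.94) and Adamts8, a secreted metalloprotease (r = 0.91). Nppb went with Atp23 (r = 0.97), the phosphatase Ptpn21 (r = 0.94), the transcriptional repressor Nfil3 (r = 0.93) and Nrp1, a co-receptor for VEGF and semaphorins (r = 0.92). Control replicate 2, at 8.97 for Nppb against 10.61 to 11.10 on the other control arrays, weighs heavily in these r. They were not computed without it. Npr1 was most like Cask (r = 0.94), Npr2 most like Irx4, a ventricular transcription factor (r = 0.92), and Npr3 most like Lancl1 (r = 0.88). The r without that removal over all 13 arrays was 0.97 for Npr2 with Irx4 and 0.99 for Npr3 with Lancl1, values that include the difference between groups.

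Of 28 other genes of peptide processing and cyclic GMP signaling listed, 25 were measured, each read by its brightest probe set. In L-NAME-fed against control hearts 9 of these probe sets rose and 4 fell, or 52% beside 45.7% of all probe sets, and their median change was 0.42 beside 0.22. With the filter at the median signal 10399 of 15521 probe sets passed. Lists were read by brightest probe sets, so a share beside all probe sets does not compare probe sets of like signal. Of the 4 that fell, those of Ide, Ppp1r12a and Pde1b have other probe sets of the same gene with the opposite sign. Mme has only 1 probe set, so its direction could not be checked on another. In methionine-fed against control hearts 0 of 25 passed, and the median was -0.06 beside 0.00. The plot of pathway genes gives both comparisons.

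**Figure D5:**
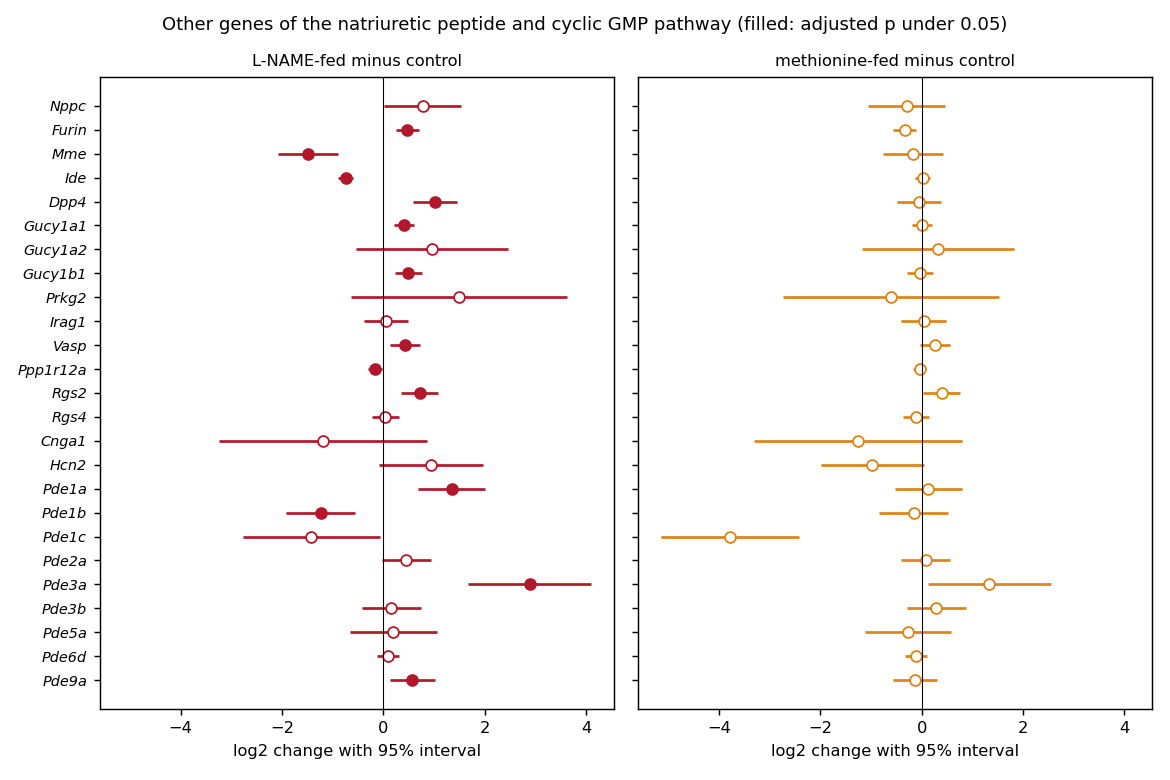
Log2 change (x axis) with its 95% interval of 25 other genes of the pathway (y axis) in L-NAME-fed minus control hearts (left) and methionine-fed minus control hearts (right), with filled points for an adjusted p under 0.05. Filled points appear on the left alone, 9 above 0 and 4 below.

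Among the enzymes that make and break down the peptides, Mme, Furin, Dpp4 and Ide passed by their brightest probe sets. Mme, neprilysin, which cleaves circulating natriuretic peptides, had log2 signals of 3.94, 3.16, 3.11 and 3.08 on the L-NAME-fed arrays, 5.25, 4.32, 4.74 and 4.25 on the methionine-fed arrays and 4.91, 4.65, 4.72, 4.41 and 5.34 on the control arrays. All 4 L-NAME-fed arrays were below the other 9, and the change against control was -1.48 ± 0.28 (adjusted p = 0.000336, limma). Mme was dim, with a mean log2 signal of 4.30 against a median of 4.87 over probe sets. Furin, the convertase that cuts the Nppb precursor, rose by 0.47 ± 0.11 (adjusted p = 0.00166, limma), and by 0.05 after array median centring, where it did not pass (adjusted p = 0.770, limma).

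Dpp4, a dipeptidyl peptidase that trims Nppb, rose by 1.02 ± 0.20 (adjusted p = 0.000563, limma). Ide, the insulin-degrading enzyme, had probe sets that disagreed. Its brightest fell by 0.74 (adjusted p = 5.16e-07, limma), while a dimmer one rose by 1.22 (adjusted p = 1.66e-05, limma), so no direction is given for it. Nppc, the C-type peptide and ligand of Npr2, had log2 signals of 3.64, 4.51, 4.61 and 3.82 on L-NAME-fed arrays, 3.18, 2.35, 3.17 and 3.56 on methionine-fed arrays and 3.53, 3.82, 2.37, 3.74 and 3.35 on control arrays. The L-NAME-fed and control arrays overlapped and Nppc did not pass, with a change of 0.78 ± 0.36 (adjusted p = 0.0882, limma).

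Gucy1a1 and Gucy1b1 encode subunits of the soluble guanylyl cyclase, a source of cyclic GMP apart from the receptors that answers to nitric oxide. They were higher in L-NAME-fed hearts by 0.40 ± 0.09 (adjusted p = 0.00182, limma) and 0.49 ± 0.12 (adjusted p = 0.00401, limma). After array median centring neither passed, and their changes were -0.02 and 0.06. Each gene has a dimmer probe set that rose more, by 1.71 for Gucy1a1 (adjusted p = 0.000359, limma) and by 1.31 for Gucy1b1 (adjusted p = 2.19e-06, limma). Rgs2, a regulator of G protein signaling that cyclic GMP-dependent kinase activates, rose by 0.72 ± 0.17 (adjusted p = 0.00295, limma), and by 0.29 after array median centring (adjusted p = 0.160, limma), and its dimmer probe set rose by 1.50 (adjusted p = 0.000266, limma).

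Of the phosphodiesterases that break down cyclic nucleotides, Pde1a rose by 1.35 and Pde9a, selective for cyclic GMP, by 0.57, and the brighter probe set of Pde1b fell by 1.24. The dimmer one of Pde1b had a change of 0.32 (adjusted p = 0.651, limma). The call of Pde9a was lost after quantile normalization (adjusted p = 0.141, limma), array median centring (adjusted p = 0.585, limma) and without control replicate 4 (adjusted p = 0.0701, limma). Pde3a passed with log2 signals of 2.92 to 3.84 on L-NAME-fed arrays and -1.16 to 1.60 on control arrays, where it did not exceed the bacterial controls, so its fold is not given. Pde2a at 0.45 and Pde5a at 0.20 did not pass (adjusted p = 0.122 and 0.725, limma). Vasp, a target of the kinase, was higher by 0.42, with -0.01 after array median centring. Its call was lost in the plain test with equal variances (adjusted p = 0.0915). Ppp1r12a, the targeting subunit of myosin phosphatase, had probe sets of both signs and is not described further.

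In methionine-fed hearts Furin changed by -0.34 ± 0.11 and Rgs2 by 0.39 ± 0.17, and neither passed (adjusted p = 0.315 and 0.445, limma). The 4 methionine-fed arrays had Furin at 8.99, 9.19, 9.03 and 9.19, against 9.04, 9.56, 9.39, 9.59 and 9.63 on the control arrays. These overlapped only through control replicate 1. Pde1c lay at -2.47 to -1.30 on methionine-fed arrays and 1.24 to 2.06 on control arrays, near or under the brightest bacterial control, at 1.28 to 1.89 and 1.60 to 2.31 in the same groups, and did not pass (adjusted p = 0.130, limma).

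Of 30 transcription factors listed as regulators of the natriuretic genes, 27 were measured, each read by its brightest probe set. In L-NAME-fed hearts 9 rose and 10 fell, or 70.4% beside 45.7% of all probe sets. With the filter at the median signal 10399 of 15521 probe sets passed, so this share is no finding about the list. Nkx2-5, the NK2 homeobox factor of cardiac muscle and a known activator of Nppa, had log2 signals of 5.84, 6.02, 5.77 and 6.01 on the L-NAME-fed arrays, 7.78, 7.80, 7.90 and 7.66 on the methionine-fed arrays and 7.83, 7.80, 7.72, 7.46 and 7.74 on the control arrays. Its L-NAME-fed arrays lay far below the others, and the change against control was -1.80 ± 0.11 (adjusted p = 6.82e-09, limma). Gata4, a zinc finger activator of both peptide genes, fell by 0.75 ± 0.13 (adjusted p = 0.000138, limma). Gata6, another GATA factor, rose by 1.18 ± 0.20 (adjusted p = 0.000113, limma), so the GATA factors went both ways. Hand2 fell by 1.31, Mef2d fell by 1.07, and Rest, a repressor of the fetal cardiac genes, rose by 2.18, all past the test in limma. Gata4, Gata6, Hand2, Mef2d and Rest each have 2 probe sets. Only the brighter is described, so these directions are those of single probe sets. In the same hearts the peptides themselves did not pass.

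Nkx2-5 and Gata4, which fell, bind motifs known from the peptide promoters, while the GATA factor Gata6 rose. Npr3 had the largest change of the 5. For these reasons the windows from 250 bases before to 50 bases after the start of both peptide genes and of Npr3 are shown. They are from RefSeq, build GRCr8, printed 5′ to 3′ on the strand of the gene, with matches to the NK2 motif AAGTG, the GATA motif AGATAA and the MCAT motif CATTCC in capitals, searched on both strands. A match is a description of the letters and not a bound site. Nppa lies at chr5:163711934-163712233 on the plus strand, Nppb at chr5:163699758-163700057 on the plus strand and Npr3 at chr2:62658716-62659015 on the minus strand.
Nppa: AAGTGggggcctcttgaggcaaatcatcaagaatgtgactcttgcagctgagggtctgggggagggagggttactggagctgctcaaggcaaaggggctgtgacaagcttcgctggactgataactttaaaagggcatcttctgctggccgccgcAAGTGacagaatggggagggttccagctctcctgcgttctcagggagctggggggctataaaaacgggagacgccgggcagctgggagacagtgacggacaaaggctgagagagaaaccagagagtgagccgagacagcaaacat
Nppb: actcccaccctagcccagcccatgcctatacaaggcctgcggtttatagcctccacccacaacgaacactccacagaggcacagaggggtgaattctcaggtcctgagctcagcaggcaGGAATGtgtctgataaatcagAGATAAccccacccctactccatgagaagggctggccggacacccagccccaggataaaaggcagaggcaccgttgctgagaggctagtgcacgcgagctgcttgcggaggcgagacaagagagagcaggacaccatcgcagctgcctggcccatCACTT
Npr3: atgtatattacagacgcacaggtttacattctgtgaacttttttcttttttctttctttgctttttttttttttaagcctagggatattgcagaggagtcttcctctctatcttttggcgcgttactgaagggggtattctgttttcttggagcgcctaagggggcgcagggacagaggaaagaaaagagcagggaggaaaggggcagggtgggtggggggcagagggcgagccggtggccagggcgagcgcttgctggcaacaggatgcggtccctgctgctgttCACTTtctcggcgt

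The Nppa window held 2 NK2 matches, starting 250 and 95 bases before the start. The Nppb window held a GATA match 110 bases and a MCAT match 131 bases before the start, and an NK2 match 45 bases after it. The GATA search took the letters AGATAA alone. The related letters TGATAA, which the Nppa and Nppb windows hold, were not counted or marked. The Npr3 window held an NK2 match 36 bases after the start. Of 33469 promoter windows of the same length, 46.2% held the NK2 motif, 11.6% the GATA motif and 14.2% the MCAT motif, so that the NK2 match in particular is common. The AP-1 motif TGACTCA, the CRE motif TGACGTCA and the CArG box were found in none of these 3 windows. The E-box CANNTG, held by 72.1% of all windows and left unmarked here, had 3 matches in the Nppa window, 1 of which overlapped an NK2 match, 1 in the Nppb window and 0 in the Npr3 window.

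Other genes that answer to wall stress went in both directions in L-NAME-fed hearts. Of 27 listed, 25 were measured, and 9 rose and 9 fell, or 72% beside 45.7% of all probe sets. With the filter at the median signal 10399 of 15521 probe sets passed, so this share is no finding about the list. By smallest p the first were genes that fell. Fhl2, a LIM-domain protein of the sarcomere, fell by 0.76, Xirp1, of the intercalated disc, by 1.41, Atp2a2, the calcium pump of the sarcoplasmic reticulum, by 0.72 and its inhibitor Pln by 0.63, all past the test in limma. Among those that rose, and chosen after their values were seen, were Mtpn, myotrophin, by 1.29, Rcan1, an inhibitor of calcineurin, by 1.28 and Acta1, the skeletal actin of the fetal heart, by 0.64 (adjusted p = 1.09e-05, 0.000334 and 0.00156, limma), although Acta1 did not pass after array median centring, at 0.22 (adjusted p = 0.261, limma). Fhl2 has 2 probe sets, Pln and Mtpn have 3 each and Atp2a2 has 5. Only the brightest of each is described, so these directions are those of single probe sets. In methionine-fed hearts 0 of the 25 passed.

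Markers of the cell types in the sample moved with the L-NAME-fed group, beside 28.7% of all probe sets that rose and 17% that fell. Myl2, the ventricular myosin light chain, was bright throughout, at 11.37 to 11.63 on L-NAME-fed arrays and 11.89 to 12.06 on control arrays. Of 7 ventricular markers measured 1 rose and 5 fell, or 85.7% called beside 45.7% of all probe sets. Bright probe sets were often called lower. Among the 1055 within 0.5 log2 of Nppb in mean control signal, 64.2% were called lower and 6.16% higher. Tnni3 changed by -0.62, Myl3 by -0.64, Tnnt2 by -0.51 and Myl2 by -0.43. After quantile normalization Tnni3 and Myl3 no longer passed, at -0.11 and -0.12 (adjusted p = 0.122 and 0.0698, limma), and Tnnt2 and Myl2 were 0.04 and 0.12. Tnnt2 and Myl2 have 2 probe sets each, and only the brighter is described. Of 8 endothelial markers 0 rose and 5 fell, or 62.5%, with Vwf lower by 1.02 and Pecam1 by 0.59, though Pecam1 was -0.19 after spike-in centring and did not pass (adjusted p = 0.0902, limma). Of 8 smooth muscle and pericyte markers 4 rose and 1 fell, also 62.5%, with Pdgfrb higher by 2.29 and Acta2 by 1.82. Of 9 fibroblast markers 0 rose and 3 fell, or 33.3%, among them Dcn by 0.62. Of the 11 atrial markers 1 rose and 3 fell, or 36.4%. Of 12 markers of blood, fat and skeletal muscle 1 rose and 3 fell, or 33.3%, among them Cd68 of macrophages by 0.84. In methionine-fed hearts no marker of these lists passed. Their part in the changes of Npr3 and Npr2 was not tested.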

How the data were processed

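The 13 samples of rat left ventricle were each hybridized to an Affymetrix rat array. The deposited values are linear signal intensity per probe set, which the authors obtained with MAS5 (version not given in the sources used here). Every array had a mean of 150 once 2% of its values were trimmed from either end. Groups came from the sample labels. Where nothing says more of how samples were kept, p-values measure the spread between these samples. The number of arrays limits the precision, and the sources used here name no processing batch.

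Of 31099 probe sets 57 were controls, and the other 31042 were fitted on the log2 scale with limma 3.58.1 in R 4.3.3, with a coefficient for each group, a variance trend on signal and no covariate. The Benjamini-Hochberg adjustment was used, with a threshold of 0.05. The exact permutation test (2-sided, on the absolute difference of means) was run for single genes. Of the probe sets, 20826 had 1 gene symbol in the platform annotation, 436 had several and 9780 had none. Named genes were all 5 members, any gene of the pathway list, up to 4 genes of each other list by smallest p, any list gene needed beside a member, and the 5 probe sets most like each member. The members and lists were chosen with earlier results of these data known. The script was tested on simulated data.

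Alternatives changed the scaling (quantile normalization, array median centring, spike-in centring), the offset (16 or 50 added) and the arrays (each left out, or a fit on only 2 groups). They also changed the probe sets (a minimum at the median signal) and the model (no variance trend, a replicate block, a plain t-test with equal or unequal variances). The atrial marker level as a covariate was chosen after the data were seen. Npr2 had no promoter window in the table used. Corin, Ostn and Prkg1 had no probe set of their own symbol.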

Additional observations from a re-analysis of the deposited data

Results flagged for a closer look

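Among 147 groups of 4 or 5 arrays over the genes named, 9 held a value apart from the rest by Dixon's test, which chance gives in about 1 in 20 groups. Nppb was 8.97 on control replicate 2, where the other control arrays lay at 10.61 to 11.10. Furin was 9.78 on L-NAME-fed replicate 1, against 9.95 to 9.96 on the others of its group. Mme was 3.94 on L-NAME-fed replicate 1, against 3.08 to 3.16. Pde9a was 6.84 on methionine-fed replicate 1, against 6.45 to 6.49, and 5.93 on control replicate 4, against 6.74 to 7.06. Myl2 was 12.06 on control replicate 1, against 11.89 to 11.94. Vwf was 9.05 on methionine-fed replicate 2, against 9.48 to 9.53. Cd68 was 8.29 on L-NAME-fed replicate 4, against 7.64 to 7.68, and 8.61 on methionine-fed replicate 2, against 8.81 to 8.85. All are log2 signals, and no cause was tested.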

How the results depend on the processing

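In L-NAME-fed minus control hearts Npr3 kept its call, and spike-in centring turned Nppa to 0.082, took Npr2 to -0.034 and brought Npr1 past the threshold at 0.58. Median centring turned Nppb to -0.23 and Npr1 to -0.25, and quantile normalization turned Npr1 to -0.12. Leaving out each array in turn gave -0.51 to -0.15 for Nppa, -0.18 to 0.36 for Nppb, 0.09 to 0.26 for Npr1, -0.51 to -0.36 for Npr2 and 1.66 to 1.87 for Npr3.

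In methionine-fed minus control hearts Npr1 turned to 0.016 with spike-in centring, and Npr2 to -0.016 with quantile normalization and -0.048 with median centring. Single arrays left out gave -0.22 to 0.33 for Nppa, -0.14 to 0.43 for Nppb, -0.24 to -0.08 for Npr1, -0.065 to 0.089 for Npr2 and 0.05 to 0.26 for Npr3.

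In L-NAME-fed minus methionine-fed hearts the atrial covariate brought Nppa past the threshold at -0.51. Nppb turned to 0.29 with quantile normalization and 0.19 with spike-in centring. Npr1 turned to -0.032 with median centring and passed at 0.56 with spike-in centring, where Npr2 was -0.22 and did not pass. Single arrays left out gave -0.66 to -0.10 for Nppa, -0.23 to 0.091 for Nppb, 0.26 to 0.42 for Npr1, -0.50 to -0.40 for Npr2 and 1.50 to 1.70 for Npr3.

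The filter at the median signal, which left Npr3 untested, gave 1 called member in both comparisons with L-NAME-fed hearts. Over all probe sets methionine-fed minus control gave 1 call with the replicate block and 0 to 1 with an array left out. Of the lists in L-NAME-fed minus control hearts, quantile normalization gave 3 ventricular and 5 fibroblast calls, median centring 8 endothelial and 5 fibroblast calls, and spike-in centring 5 fibroblast calls. Median centring turned Gucy1a1 to -0.025 and Vasp to -0.0051, spike-in centring turned Ppp1r12a to 0.24 and Pam to 0.14, and quantile normalization turned Tnnt2 to 0.043, Myl2 to 0.12 and Pam to 0.021. Nppa with Nppb gave r of -0.021 without the 2 farthest arrays. The causes were not tested.

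Replicate numbers did not pair the arrays, as 2 of 12 same-numbered pairs deviated together with r over 0.1 (range -0.21 to 0.24). The replicate block gave 13149 calls in L-NAME-fed minus control against 14183 without it, and changed no call among the 5 genes. Each of the 5 had 1 probe set, so a further probe set could not be tried. Dim probe sets vary most on the log2 scale, which limits Npr3 more than Npr2.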
